A study of Homo sapiens with 12 samples.

Results

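The genes of glycolysis, glycogen turnover and lactate export were followed across 12 RNA-seq libraries of MDA-MB-231 cells, an established human triple-negative breast cancer line. The 40 genes were taken by symbol from a table of 60664 genes, and all 40 were found and passed the filter on low counts in each comparison. They cover glucose uptake, every step from glucose to lactate, glycogen synthesis and breakdown, and 1 enzyme of gluconeogenesis. Also covered are pyruvate dehydrogenase subunits and their kinases, which set the entry of pyruvate into the citric acid cycle. The choice names genes and uses no measured value, but it was made with earlier results of these data known.

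The study asked how low oxygen and the loss of CCAR2, which encodes the nuclear protein DBC1, change gene expression in this line. There were 3 groups of 4 libraries: wildtype (WT) cells in normoxia without treatment, WT cells kept in hypoxia for 24 hr, and untreated CCAR2-/- cells (CCAR2 KO) in normoxia. The KO line was made with LentiCRISPR, and whether it is 1 clone is not stated in the methods. The methods report sequencing of the edited region and loss of the protein by Western blotting. No library of KO cells in hypoxia was analysed here. The methods call the replicates biological, but the numbers of replicates they give differ from the 4 libraries per group here, and nothing ties a library to a culture. The p-values therefore measure the spread between these libraries, and how much of it is technical is not known. In bulk RNA, a change in RNA per cell and a change in the share of cells that carry it cannot be told apart.

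Glycolysis splits glucose into pyruvate in the cytosol and yields ATP without oxygen. Where pyruvate is reduced to lactate, the pathway regenerates its own NAD+, and the lactate leaves the cell through monocarboxylate transporters. Most steps can be carried out by more than 1 isoenzyme, each from its own gene, and some of these genes are textbook targets of the hypoxia-inducible factors. Glycogen is a branched glucose store that is built by glycogen synthase and the branching enzyme and broken down by phosphorylases.

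Levels are given in CPM, the counts scaled to a common library size. CCAR2, the targeted gene, was between 148 and 152 CPM in WT normoxia, between 141 and 153 CPM in hypoxia and between 54.6 and 60.7 CPM in KO cells, so its transcript was reduced but still present. CA9, a marker of hypoxia, was at most 0.0968 CPM in WT normoxia, at most 0.195 CPM in KO cells and at least 4.40 CPM in hypoxia. VEGFA, a further hypoxia-responsive gene, was between 61.7 and 72.9 CPM in WT normoxia, between 119 and 149 CPM in hypoxia and between 114 and 122 CPM in KO cells. The sums of the deposited values per library were between 153904088 and 213743693 in WT normoxia, between 76384973 and 195621872 in hypoxia and between 68599412 and 152328450 in KO cells. Of the defining markers of the line, VIM, CD44, AXL, CAV1 and MSN were present, ESR1, PGR and CDH1 were under 1 CPM in every group, and ERBB2, expected to be low, was between 90.7 and 97.0 CPM in WT normoxia. Of the markers of other cells, the 5 leukocyte genes summed to at most 1.46 CPM in any library. The 6 fibroblast genes summed to between 14.98 and 16.5 CPM in WT normoxia, between 12.9 and 18.8 CPM in hypoxia and between 20.4 and 23.7 CPM in KO cells, with COL1A1 holding most of the sum and DCN listed at 0 in all 4 KO libraries. The 3 endothelial genes summed to between 2.41 and 3.54 CPM in WT normoxia, between 3.43 and 5.21 CPM in hypoxia and between 5.10 and 5.85 CPM in KO cells, most of it from PECAM1. The 6 luminal genes, led by KRT8 and KRT18, summed to between 1459 and 1638 CPM in WT normoxia, between 1528 and 1773 CPM in hypoxia and between 1322 and 1432 CPM in KO cells. Of the genes of these 4 lists, PECAM1, COL1A1, PDGFRB and CD14 were called higher in KO cells than in WT normoxia by edgeR, with log2 fold changes of 1.11 ± 0.14, 0.56 ± 0.07, 0.62 ± 0.22 and 0.67 ± 0.21 (SE). KRT18 had -0.21 ± 0.05, adjusted p = 0.0037 there, while EPCAM of the same luminal list had 0.27 ± 0.06, adjusted p = 0.0032, and neither was called. The part of these differences in the results was not tested.

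In WT normoxia, the 40 genes took 1.81% ± 0.05 (SD, n = 4) of the sum of a library. The share was 2.45% ± 0.11 in hypoxia and 1.85% ± 0.06 in KO cells. Scaled to the length of the gene's exons, GAPDH stood first with 1709 ± 47.7 CPM per kilobase (SD, n = 4), followed by ENO1 with 583 ± 19.6 and PGAM1 with 352 ± 12.1. TPI1, LDHB and ALDOA came next at 309 ± 20.4, 294 ± 19.6 and 275 ± 27.6 CPM per kilobase, where TPI1 overlapped LDHB and LDHB overlapped ALDOA. At the other end were PDK1 with 0.968 ± 0.048, PDK4 with 0.811 ± 0.040 and the lactate transporter gene SLC16A1 with 0.0713 ± 0.018 CPM per kilobase. With PKM and LDHA at places 7 and 8, the first 8 places all went to enzymes between aldolase and lactate, while PGK1 of the same stretch stood at place 10. The order depends on the length that is used: with the longest transcript in place of all exons, PKM moved from place 7 to place 3 and GPI from place 15 to place 10.

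**Figure D1:**
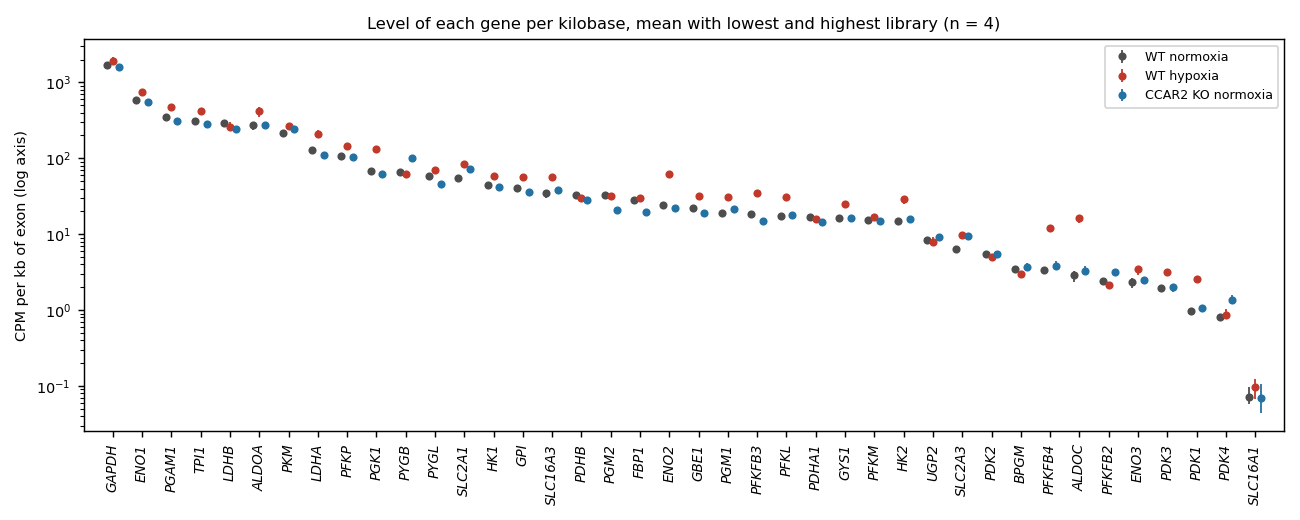
Level of each of the 40 genes in CPM per kilobase of exon on a log axis, for WT normoxia, WT hypoxia and CCAR2 KO cells, with the mean as a point and the lowest and highest of 4 libraries as a line. GAPDH stands first at 1709 CPM per kilobase in WT normoxia and SLC16A1 last at 0.0713, and the red points of ALDOC, PFKFB4, ENO2 and PDK1 stand clear of the other groups.

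After 24 hr in hypoxia, 19 of the 40 genes were higher than in WT normoxia, none was lower and 21 were not called. A call needed a Benjamini-Hochberg adjusted p-value below 0.05 together with a log2 fold change of 0.5 or more in either direction. Changes written as a value ± an error are log2 fold changes ± SE from edgeR, with its adjusted p. Of all 21776 genes tested, 5.83% were called higher and 1.43% lower, against 47.5% and 0 of the members. The median log2 fold change was 0.47 over the members and 0.01 over all genes tested. The adjusted p-value alone was passed by 27 members, all of them higher, compared with 11.6% of all genes higher and 11.98% lower. The count of members called lower was 0 with edgeR, DESeq2 and limma-voom, and at an unadjusted p-value under 0.05 it was 2 with edgeR. By the scaling within this comparison, the libraries of both groups did not overlap for 28 members that were higher and 1 that was lower, against 13.3% and 13.2% of all genes.

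**Figure D2:**
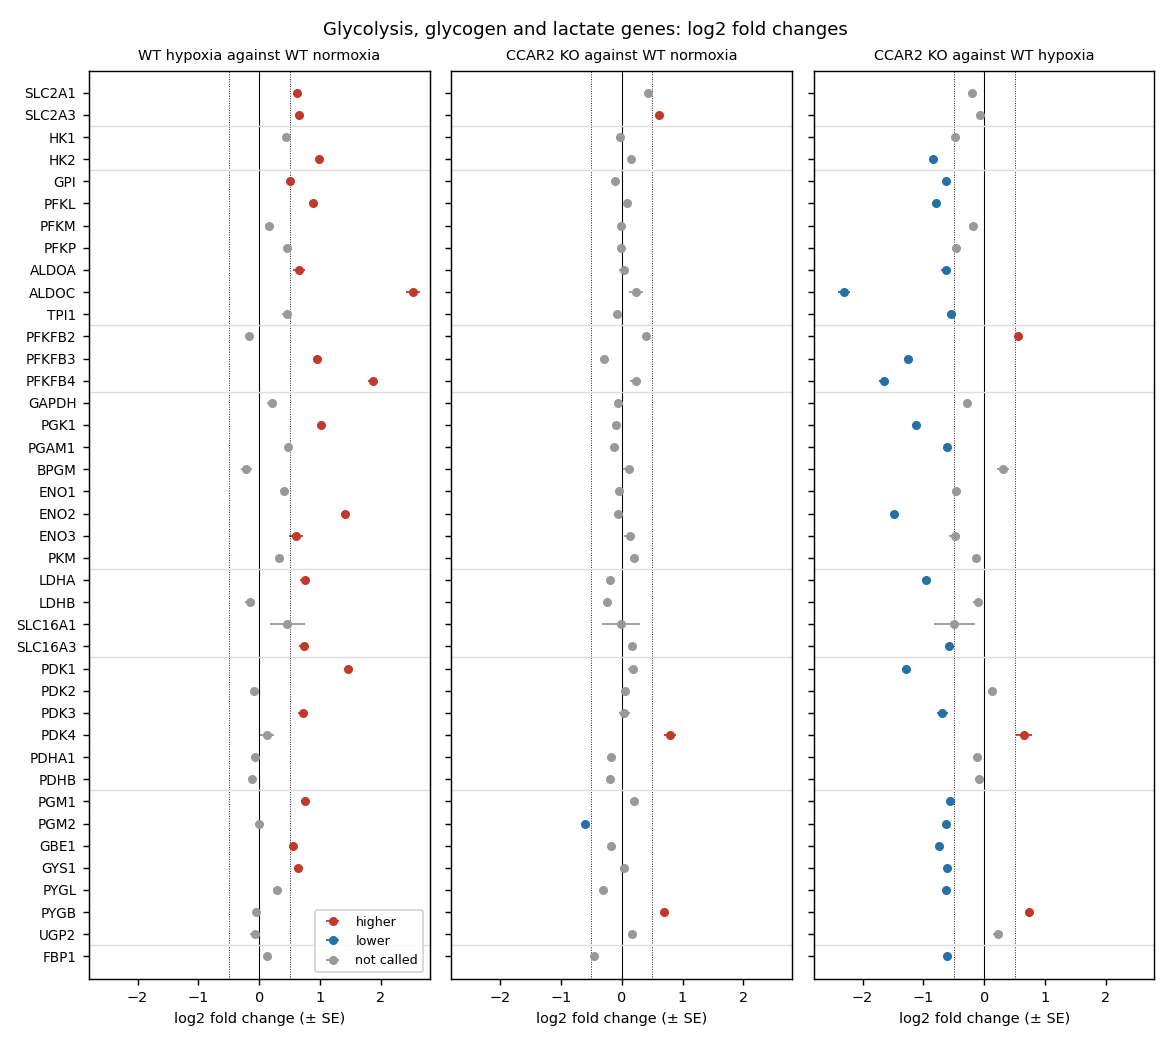
Log2 fold change ± SE of each of the 40 genes from edgeR, for WT hypoxia against WT normoxia, CCAR2 KO against WT normoxia and CCAR2 KO against WT hypoxia, with red for genes called higher, blue for lower, gray for not called and dotted lines at 0.5 in both directions. In the left panel 19 points are red and none is blue, in the middle panel 3 are red and 1 is blue, and in the right panel 3 are red and 21 are blue.

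The 5 largest rises under hypoxia were in ALDOC, PFKFB4, PDK1, ENO2 and PGK1, which belong to different steps of the pathway. Hypoxia-inducible factors are known to bind DNA at a core of ACGTG or GCGTG, so the bases before the start of these 5 genes are shown with those letters in capitals on either strand. Each run is the 250 bases upstream of a transcription start in RefSeq on GRCh38.p14, read 5′ to 3′ on the strand of the gene. For PDK1, which has 2 annotated starts, the window that holds a match is shown.
ALDOC (chr17:28576896-28577145, minus strand): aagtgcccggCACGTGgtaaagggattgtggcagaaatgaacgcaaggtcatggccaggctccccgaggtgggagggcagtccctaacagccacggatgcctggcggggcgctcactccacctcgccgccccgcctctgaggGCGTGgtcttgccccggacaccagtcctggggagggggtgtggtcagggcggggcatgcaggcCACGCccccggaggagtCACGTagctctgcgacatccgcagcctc
PFKFB4 (chr3:48556804-48557053, minus strand): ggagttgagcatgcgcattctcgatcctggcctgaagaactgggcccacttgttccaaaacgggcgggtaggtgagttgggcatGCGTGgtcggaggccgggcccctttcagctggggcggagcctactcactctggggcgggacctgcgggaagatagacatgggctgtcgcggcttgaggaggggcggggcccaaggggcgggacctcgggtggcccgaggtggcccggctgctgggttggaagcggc
PDK1 (chr2:172555840-172556089, plus strand): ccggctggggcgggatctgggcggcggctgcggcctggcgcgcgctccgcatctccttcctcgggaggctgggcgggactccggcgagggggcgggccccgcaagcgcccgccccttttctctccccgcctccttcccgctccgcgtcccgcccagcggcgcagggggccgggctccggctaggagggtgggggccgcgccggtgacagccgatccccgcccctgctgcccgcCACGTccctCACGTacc
ENO2 (chr12:6914330-6914579, plus strand): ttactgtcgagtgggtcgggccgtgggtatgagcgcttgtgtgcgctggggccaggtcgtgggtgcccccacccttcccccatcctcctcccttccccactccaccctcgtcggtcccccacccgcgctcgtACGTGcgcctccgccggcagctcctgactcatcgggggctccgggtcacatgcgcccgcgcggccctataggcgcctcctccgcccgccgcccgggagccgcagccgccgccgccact
PGK1 (chrX:78103998-78104247, plus strand): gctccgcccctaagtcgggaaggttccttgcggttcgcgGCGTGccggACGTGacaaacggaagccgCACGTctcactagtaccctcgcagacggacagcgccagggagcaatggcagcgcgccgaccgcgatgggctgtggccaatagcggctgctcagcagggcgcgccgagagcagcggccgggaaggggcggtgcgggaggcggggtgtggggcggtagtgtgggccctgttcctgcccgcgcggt

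Counting each strand, ALDOC held 3 matches to ACGTG and 2 to GCGTG, of which a pair of ACGTG matches was the palindrome CACGTG read on both strands. PGK1 held 2 and 1, PDK1 held 2 and 0, ENO2 held 1 and 0, and PFKFB4 held 0 and 1. These letters are short and common. At least 1 match to either motif was present before a start of 47.4% of all genes with such a window and of 62.1% of those tested under hypoxia. Of the 37 members with a window it was present in 31, of the 18 called higher under hypoxia in 17, and of the 19 not called in 14. Genes with several starts have more windows and so more chances of a match. Counted by window, the share was 53.1% for the genes tested, 77.4% for the members called higher and 42.1% for the members not called. A match is a description of the letters and no evidence of binding.

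Both glucose transporter genes rose under hypoxia. SLC2A1, which encodes the widespread carrier GLUT1, was at 264, 259, 259.8 and 266 CPM in WT normoxia, 397, 359, 403 and 420.3 CPM in WT hypoxia and 337, 338, 358 and 348 CPM in CCAR2 KO cells. All hypoxia libraries lay above all WT normoxia libraries, with a log2 fold change of 0.62 ± 0.05 (SE) and an edgeR adjusted p = 3.7e-05. SLC2A3, which encodes the high-affinity carrier GLUT3, was at 37.96, 41.2, 37.2 and 40.5 CPM in WT normoxia, 55.7, 65.7, 61.4 and 60.04 CPM in WT hypoxia and 57.9, 57.4, 57.9 and 59.01 CPM in CCAR2 KO cells. It rose by 0.66 ± 0.06, adjusted p = 7.9e-05, again without overlap. SLC2A3 and SLC2A14 are near-identical copies whose reads may be split between them, and SLC2A14 was higher by 0.76 ± 0.16, adjusted p = 0.0064, at 0.717 to 1.01 CPM in WT normoxia.

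The hexokinases trap glucose as glucose 6-phosphate. HK2, the inducible isoenzyme, was at 92.8, 83.6, 87.2 and 95.2 CPM in WT normoxia, 175, 152, 183 and 187 CPM in WT hypoxia and 99.3, 92.9, 102 and 94.5 CPM in CCAR2 KO cells. The hypoxia libraries stood apart from both other groups, and the rise over WT normoxia was 1.98-fold (0.99 ± 0.07, adjusted p = 8.6e-06). HK1, the constitutive isoenzyme, had a log2 fold change of 0.44 ± 0.05, adjusted p = 1.3e-04, which passed the p-value but not the fold limit.

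All 7 genes of the upper part, from GPI to TPI1, passed the adjusted p-value upward, and 4 of them were called. PFKL, the liver-type subunit of phosphofructokinase, the committed step, rose from between 139 and 162 CPM to between 266 and 297 CPM (0.88 ± 0.06, adjusted p = 7.9e-06). PFKP, the most abundant of the 3 subunits, and PFKM had log2 fold changes of 0.45 ± 0.06 and 0.16 ± 0.05 and were not called. GPI, which converts glucose 6-phosphate to fructose 6-phosphate, was at the fold limit with 0.50 ± 0.04, adjusted p = 4.7e-05. Its call was lost when WT normoxia replicate 1 or hypoxia replicate 2 or 4 was left out, with values of 0.49, 0.50 and 0.49. TPI1, at 0.46 ± 0.08, was called only when hypoxia replicate 1 was left out or with upper-quartile scaling, in both cases with a log2 fold change of 0.50 to 0.51.

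The largest rise of all members was that of 1 aldolase gene, ALDOC. ALDOC (ENSG00000109107, chr17:28573115-28577264, minus strand), the brain-type aldolase, was at 6.86, 8.73, 8.45 and 9.63 CPM in WT normoxia, 48.6, 52.4, 40.9 and 47.8 CPM in WT hypoxia and 8.72, 8.98, 11.1 and 9.65 CPM in CCAR2 KO cells. Every hypoxia library was above 40 CPM and every other library at or under 11.1 CPM, and the change was 5.74-fold (2.52 ± 0.11, adjusted p = 3.4e-07). ALDOA, which supplied nearly all aldolase transcript, rose from between 918 and 1162 CPM to between 1369 and 1835 CPM (0.65 ± 0.10, adjusted p = 0.0012). A same-strand gene model that shares 42.3% of the ALDOA exon bases held 10.3% of its value.

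The PFKFB enzymes make and remove fructose 2,6-bisphosphate, the strongest activator of phosphofructokinase. PFKFB4 (ENSG00000114268, chr3:48517684-48562015, minus strand) was at 18.6, 20.8, 20.6 and 22.7 CPM in WT normoxia, 72.2, 72.6, 71.1 and 79.5 CPM in WT hypoxia and 21.2, 20.5, 26.7 and 25.98 CPM in CCAR2 KO cells. The hypoxia libraries did not overlap with the others, and the rise was 3.64-fold (1.86 ± 0.07, adjusted p = 9.1e-08). UCN2, which overlaps PFKFB4 on the same strand over 4.73% of its exon bases and held 17.8% of its value, rose as well (1.41 ± 0.14, adjusted p = 9.2e-05), and reads could be split between them.

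PFKFB3, the isoenzyme with the strongest kinase activity, was at 113, 108, 113 and 119 CPM in WT normoxia, 219, 189.8, 225 and 226 CPM in WT hypoxia and 88.8, 89.1, 89.4 and 92.8 CPM in CCAR2 KO cells. The 3 groups did not overlap, with hypoxia highest and KO cells lowest, and the rise under hypoxia was 0.96 ± 0.06, adjusted p = 5.2e-06. PFKFB2, the heart-type isoenzyme, went the other way without a call. It was at 26.9, 24.4, 24.1 and 24.3 CPM in WT normoxia, 23.4, 19.8, 22.8 and 20.9 CPM in WT hypoxia and 32.4, 31.5, 32.3 and 32.5 CPM in CCAR2 KO cells. By this scaling over all 12 libraries, every hypoxia library lay below every WT normoxia library. By the scaling within the comparison the ranges of PFKFB2 overlapped (-0.17 ± 0.07, adjusted p = 0.096). The opposite-strand gene YOD1 overlaps 3.09% of its exon bases and held 210% of its value, its log2 fold change was -0.54 ± 0.07, and whether strand was used in counting is not stated.

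In the lower part, 3 of 8 genes were called higher. PGK1 (ENSG00000102144, chrX:77910739-78129296, plus strand), which makes the first ATP of the pathway, was at 365, 380.1, 369.7 and 374 CPM in WT normoxia, 728, 782, 668 and 775 CPM in WT hypoxia and 337, 335, 345 and 337 CPM in CCAR2 KO cells. It rose 2.03-fold under hypoxia without overlap (1.02 ± 0.06, adjusted p = 2.2e-06). GAPDH, the most abundant member and a common reference gene, was between 4947 and 5252 CPM in WT normoxia and between 5231 and 6403 CPM in hypoxia. Its ranges overlapped by this scaling over all 12 libraries but not by the scaling within the comparison (0.20 ± 0.07, adjusted p = 0.059).

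ENO2 (ENSG00000111674, chr12:6913745-6923698, plus strand), the neuronal enolase, was at 102, 101, 105 and 104 CPM in WT normoxia, 249, 269, 261 and 289.9 CPM in WT hypoxia and 91.3, 90.4, 104 and 98.8 CPM in CCAR2 KO cells. Its rise of 2.65-fold (1.40 ± 0.05, adjusted p = 9.1e-08) compared with 0.41 ± 0.06 for ENO1, the abundant enolase, which was not called. ENO3, the muscle enolase, was called at 0.61 ± 0.11, adjusted p = 0.0034, but its level was low, between 8.498 and 11.3 CPM in WT normoxia and between 12.6 and 16.6 CPM in hypoxia. PFN1 on the opposite strand overlaps 111 bases of the ENO3 exons and held 154 times its value, while the log2 fold change of PFN1 was 0.01 ± 0.07.

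PGAM1 and PKM, which act on either side of the enolases, had log2 fold changes of 0.48 ± 0.05 and 0.33 ± 0.05 and were not called. PGAM1 was called when hypoxia replicate 3 was left out, at 0.50, and with upper-quartile scaling, at 0.53. Reads of several members may be shared with their pseudogenes, which together held 1.83% of the value of LDHA, 1.148% of that of TPI1, 0.163% of that of GAPDH, with 65 pseudogenes in the table, and 0.063% of that of PGAM1, with 13. BPGM, which diverts the pathway through 2,3-bisphosphoglycerate, was at between 8.69 and 9.65 CPM in WT normoxia and between 6.901 and 8.11 CPM in hypoxia (-0.21 ± 0.09, adjusted p = 0.10). Its hypoxia libraries lay below all WT normoxia libraries, and the fit made no call.

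For lactate formation and export, LDHA and SLC16A3 were called higher under hypoxia. LDHA, whose subunit favors the reduction of pyruvate to lactate, was at 812, 829, 797 and 768 CPM in WT normoxia, 1236, 1486, 1171 and 1381 CPM in WT hypoxia and 710.03, 674, 677 and 675 CPM in CCAR2 KO cells. It rose under hypoxia by 0.75 ± 0.07, adjusted p = 9.0e-05, with every hypoxia library above every other library. LDHB, whose subunit favors the reverse reaction, was at 843, 931, 920.1 and 812 CPM in WT normoxia, 707, 905, 723 and 766 CPM in WT hypoxia and 716, 725, 728 and 715 CPM in CCAR2 KO cells. The hypoxia and WT normoxia libraries of LDHB overlapped (-0.15 ± 0.08, adjusted p = 0.24).

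SLC16A3, which encodes MCT4, the lactate exporter of glycolytic cells, was at 273, 317, 320.2 and 345 CPM in WT normoxia, 507, 480.3, 527 and 528 CPM in WT hypoxia and 320.1, 339, 357 and 356 CPM in CCAR2 KO cells. It was higher under hypoxia without overlap (0.73 ± 0.07, adjusted p = 9.7e-05). The opposite-strand gene CSNK1D, which overlaps 5.36% of its exon bases and held 38.9% of its value, had a log2 fold change of 0.16 ± 0.05. SLC16A1, which encodes the common transporter MCT1, was low, between 0.231 and 0.663 CPM over all 12 libraries. No difference under hypoxia was detected for it (0.46 ± 0.28, adjusted p = 0.28). Between hypoxia and WT normoxia, the log2 ratio of SLC16A3 to SLC16A1 differed by 0.29 ± 0.33 with overlap (exact permutation p = 0.40), so unequal change of this pair was not shown.

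The pyruvate dehydrogenase kinases phosphorylate and switch off the complex that carries pyruvate into the citric acid cycle. PDK1 (ENSG00000152256, chr2:172555373-172608669, plus strand) was at 14.9, 14.99, 13.5 and 14.2 CPM in WT normoxia, 37.6, 39.4, 38.03 and 40.05 CPM in WT hypoxia and 16.7, 14.9, 14.8 and 17.1 CPM in CCAR2 KO cells. The hypoxia libraries were all at least 37.6 CPM and the others at most 17.1 CPM, a 2.75-fold rise (1.46 ± 0.05, adjusted p = 9.1e-08). PDK3 also rose, from between 8.85 and 10.2 CPM to between 15.1 and 16.8 CPM (0.72 ± 0.08, adjusted p = 1.3e-04). PDK2 and PDK4 had log2 fold changes of -0.09 ± 0.05 and 0.12 ± 0.11 and were not called. The catalytic subunit genes PDHA1 and PDHB, which encode the component of the complex that the kinases phosphorylate, had values of -0.08 ± 0.06 and -0.11 ± 0.06 and were not called either.

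Of the 7 genes grouped under glycogen, 3 rose under hypoxia and none fell. PGM1, which links glucose 6-phosphate and glucose 1-phosphate, was at 76.9, 80.1, 79.4 and 83.6 CPM in WT normoxia, 123, 144, 127 and 135 CPM in WT hypoxia and 89.3, 89.6, 92.1 and 88.02 CPM in CCAR2 KO cells. The hypoxia libraries lay above both other groups (0.75 ± 0.06, adjusted p = 2.4e-05). GYS1, the muscle-type glycogen synthase, rose from between 65.2 and 74.1 CPM to between 95.9 and 112 CPM (0.63 ± 0.06, adjusted p = 8.5e-05), and GBE1, the branching enzyme, from between 110.4 and 121 CPM to between 160.5 and 170.02 CPM (0.55 ± 0.05, adjusted p = 4.0e-05). UGP2, which makes the UDP-glucose that the synthase uses, had -0.07 ± 0.08 and was not called. The phosphorylase genes PYGL and PYGB had 0.30 ± 0.05, adjusted p = 0.0022, and -0.06 ± 0.05, adjusted p = 0.44, and PGM2 had 0.002 ± 0.05. FBP1, the gluconeogenic fructose 1,6-bisphosphatase, which opposes phosphofructokinase, had 0.13 ± 0.06, adjusted p = 0.17.

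CCAR2 KO cells in normoxia differed from WT normoxia in 4 of the 40 genes, with SLC2A3, PDK4 and PYGB higher and PGM2 lower. Of all 21410 genes tested, 6.73% were called higher and 2.94% lower, so the shares of the members, 7.5% and 2.5%, were near the background. The median log2 fold change of the members was 0.01, as it was over all genes tested. The adjusted p-value alone was passed by 9 members upward and 11 downward, against 14.9% and 15.4% of all genes.

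PYGB (ENSG00000100994, chr20:25248069-25298014, plus strand), the brain-type glycogen phosphorylase, was at 283, 287, 294 and 303 CPM in WT normoxia, 272, 275, 275 and 278 CPM in WT hypoxia and 455, 439, 483 and 456 CPM in CCAR2 KO cells. All KO libraries were above 438 CPM and all others at or under 303 CPM, a rise of 1.61-fold (0.69 ± 0.04, adjusted p = 2.4e-07). PYGL, the liver-type phosphorylase, was at 285, 287, 293 and 268 CPM in WT normoxia, 329, 364, 329 and 342 CPM in WT hypoxia and 226, 218, 224 and 220.4 CPM in CCAR2 KO cells. The 3 groups did not overlap, and KO cells were lowest, with a log2 fold change against WT normoxia of -0.31 ± 0.04, adjusted p = 4.6e-05, under the fold limit.

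PGM2 (ENSG00000169299, chr4:37826633-37862937, plus strand) is named as a phosphoglucomutase but acts mainly on pentose phosphates. It was at 124, 119.7, 125 and 114 CPM in WT normoxia, 118, 123, 116 and 116 CPM in WT hypoxia and 84.3, 77.9, 69.4 and 76.6 CPM in CCAR2 KO cells. KO cells lay below both WT groups, which overlapped, and the log2 fold change was -0.61 ± 0.06, adjusted p = 5.7e-06. PGM1 had 0.21 ± 0.04, adjusted p = 0.0023 and was not called.

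PDK4 (ENSG00000004799, chr7:95583499-95596491, minus strand), the kinase linked to fasting and fatty acid use, was at 3.805, 3.73, 3.399 and 3.74 CPM in WT normoxia, 3.53, 3.71, 4.66 and 3.72 CPM in WT hypoxia and 6.46, 5.37, 5.78 and 7.103 CPM in CCAR2 KO cells. Its level was low in every library, and the KO libraries lay above all others (1.73-fold, 0.79 ± 0.10, adjusted p = 1.0e-04). In KO cells PDK1, PDK2 and PDK3 had log2 fold changes of 0.18 ± 0.07, 0.06 ± 0.06 and 0.05 ± 0.08, none of them past the p-value. PDHA1 and PDHB were at -0.18 ± 0.04, adjusted p = 0.0078, and -0.19 ± 0.05, adjusted p = 0.011, past the p-value but not the fold limit.

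SLC2A3 was called higher in KO cells as in hypoxia, both against the same WT normoxia libraries. The KO libraries, all at least 57.4 CPM, lay within the range of the hypoxia libraries and above WT normoxia, with a log2 fold change of 0.61 ± 0.05, adjusted p = 1.5e-06. SLC2A14, with which it may share reads, was at 0.69 ± 0.16, adjusted p = 0.0057. SLC2A1 passed the p-value but not the fold limit, with every KO library above every WT normoxia library (0.44 ± 0.04, adjusted p = 3.2e-06).

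The genes that rose most under hypoxia were not called in KO cells. Against WT normoxia, ALDOC had 0.23 ± 0.11, adjusted p = 0.15, PFKFB4 had 0.23 ± 0.09, adjusted p = 0.091, and PDK1 had 0.18 ± 0.07, adjusted p = 0.069. ENO2 had -0.06 ± 0.05, adjusted p = 0.37, and PGK1 had -0.10 ± 0.04, adjusted p = 0.059, with all KO libraries of PGK1 below those of WT normoxia. Among genes past the p-value alone, LDHA had -0.19 ± 0.04, adjusted p = 0.0027, LDHB had -0.24 ± 0.05, adjusted p = 0.0025, and PFKFB3 had -0.29 ± 0.04, adjusted p = 2.7e-04. PFKFB2, at 0.41 ± 0.05, adjusted p = 7.0e-05, was above all WT libraries in all 4 KO libraries, while YOD1 on the opposite strand had -0.41 ± 0.06. FBP1 was between 32.6 and 36.3 CPM in KO cells and between 44.7 and 51.9 CPM in WT normoxia (-0.46 ± 0.06, adjusted p = 6.9e-05). It was called lower when WT normoxia replicate 1 was left out, at -0.51, which raised the count of lower members from 1 to 2.

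Hypoxia and the loss of CCAR2 were both set against the same WT normoxia libraries, so their difference was tested by comparing KO cells with WT hypoxia directly. In that comparison 3 members were higher in KO cells, 21 were lower and 16 were not called, against 7.08% and 7.88% of the 21158 genes tested. The median log2 fold change was -0.55 over the members and -0.02 over all genes. This comparison shares the WT hypoxia libraries with the one above, so genes that were high in those libraries tend to be lower in KO cells by construction.

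The largest differences were those of ALDOC (-2.30 ± 0.10, adjusted p = 2.8e-08), PFKFB4 (-1.65 ± 0.09, adjusted p = 1.4e-07) and ENO2 (-1.48 ± 0.06, adjusted p = 2.7e-08). PDK1, PFKFB3 and PGK1 followed, at -1.29 ± 0.06, -1.26 ± 0.06 and -1.13 ± 0.06. LDHA differed by -0.95 ± 0.07, adjusted p = 2.3e-06, with levels above WT normoxia in hypoxia and below it in KO cells. For SLC2A3 the difference was -0.07 ± 0.05, adjusted p = 0.39, and for SLC2A1 it was -0.19 ± 0.05, adjusted p = 0.015. ENO3 lay at the fold limit with -0.49 ± 0.09, adjusted p = 0.0014, and was called with limma-voom, with upper-quartile scaling and without hypoxia replicate 2.

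TPI1, PGAM1, PGM2, PYGL and FBP1 were also lower in KO cells than in hypoxia. TPI1 lost its call without hypoxia replicate 2, at -0.48. PYGL and FBP1 differed by -0.62 ± 0.05, adjusted p = 2.3e-06, and -0.61 ± 0.06, adjusted p = 1.2e-05. The 3 genes that were higher in KO cells were PYGB (0.74 ± 0.04, adjusted p = 3.4e-07), PDK4 (0.66 ± 0.13, adjusted p = 0.0019) and PFKFB2 (0.56 ± 0.06, adjusted p = 3.5e-05).

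Under hypoxia, 17 of 20 ratios between related genes changed. The pairs are isoenzymes or subunits of 1 step, apart from BPGM with PGAM1 and PGM2 with PGM1. Several pairs share a gene, so they are not separate results. For each pair, the log2 ratio of both genes was taken within each library, which needs no scaling between libraries, and compared by a two-sided exact permutation test with adjustment over 60 tests. With 4 libraries against 4 the smallest p is 0.0286, which became 0.0408 after adjustment. Past 0.05 were 17 ratios in hypoxia, 9 in KO cells and 16 between KO cells and hypoxia, all at this smallest p. That p arises only where the groups do not overlap, so the lack of overlap adds no support. Whether it stays under 0.05 after adjustment depends on how many of the 60 tests reach it. The share that other gene pairs would give was not computed. The shares that follow are means of CPM per kilobase of exon.

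In WT normoxia LDHA made up 30.6% ± 1.1 (SD, n = 4) of the lactate dehydrogenase pair, against 45.0% ± 1.3 in hypoxia and 31.3% ± 0.65 in KO cells. The log2 ratio of LDHA to LDHB rose by 0.89 ± 0.05 (SE) under hypoxia and differed by 0.05 ± 0.04 in KO cells (exact permutation p = 0.29), where both genes were lower. With the longest transcript as the length, the LDHA share was 36.8%, 52.0% and 37.6%, and LDHA exceeded LDHB in hypoxia by this length but not by the length of all exons.

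HK2 went from 25.0% ± 1.0 to 32.7% ± 1.4 of the hexokinase pair under hypoxia, and its log2 ratio to HK1 rose by 0.54 ± 0.06. In KO cells that ratio rose by 0.18 ± 0.04, also without overlap, and the direct comparison of KO cells with hypoxia gave -0.37 ± 0.05. Among phosphofructokinase subunits, PFKL went from 12.2% ± 0.51 to 16.1% ± 0.65, while PFKP held 77.0% and 75.2%. The log2 ratio of PFKP to PFKL changed by -0.43 ± 0.05 and that of PFKP to PFKM by 0.28 ± 0.02.

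PFKFB4 went from 13.9% ± 0.89 to 24.5% ± 1.5 of the PFKFB transcript under hypoxia and PFKFB2 from 10.1% ± 0.70 to 4.32% ± 0.28. In KO cells PFKFB2 had 14.5% ± 0.41, so that the shares in hypoxia and in KO cells lay on opposite sides of WT normoxia. The log2 ratio of PFKFB3 to PFKFB2 rose by 1.12 ± 0.07 under hypoxia and changed by -0.70 ± 0.05 in KO cells. PFKFB3 held the largest share in every group, 76.0%, 71.1% and 67.8%.

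ALDOC went from 1.03% ± 0.08 to 3.70% ± 0.17 of the aldolase pair under hypoxia and ENO2 from 3.95% ± 0.13 to 7.58% ± 0.35 of the enolases. Both thus remained minor isoenzymes of their step despite the fold of their rise. The log2 ratio of ALDOC to ALDOA rose by 1.88 ± 0.06 and that of ENO2 to ENO1 by 0.996 ± 0.04. Neither ratio passed the test in KO cells, where the differences were 0.20 ± 0.07 and -0.03 ± 0.04.

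PDK1 went from 10.5% ± 0.12 to 22.2% ± 1.0 of the kinase transcript under hypoxia, and PDK2 went from 59.4% ± 1.1 to 43.2% ± 0.63. In KO cells PDK4 had 13.7% ± 1.4, compared with 8.77% ± 0.18 in WT normoxia, and the log2 ratio of PDK4 to PDK1 rose by 0.61 ± 0.05. Under hypoxia the same ratio changed by -1.34 ± 0.10.

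The phosphorylase pair and the pair of PGM2 with PGM1 shifted in both conditions. The log2 ratio of PYGL to PYGB rose by 0.35 ± 0.05 under hypoxia and changed by -0.999 ± 0.05 in KO cells, and the direct comparison of KO cells with hypoxia gave -1.35 ± 0.04. PYGB accordingly had 52.5% ± 1.5 of the pair in WT normoxia, 46.4% ± 1.1 in hypoxia and 68.8% ± 0.69 in KO cells. By the longest transcript these shares were 43.2%, 37.3% and 60.3%. The log2 ratio of PGM2 to PGM1 changed by -0.75 ± 0.07 under hypoxia, where PGM1 rose. In KO cells it changed by -0.82 ± 0.09, where PGM2 fell and PGM1 had 0.21 ± 0.04 without a call. The ratios of both groups overlapped when they were compared directly, at -0.07 ± 0.08 (exact permutation p = 0.49).

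A further 64 genes of the same pathways were listed, of which 53 were tested under hypoxia. There 6 were higher and 2 lower, or 11.3% and 3.77%, against 5.83% and 1.43% of all genes tested. PPP1R3G and PPP1R3B, which target protein phosphatase 1 to glycogen, rose by 1.55 ± 0.10, adjusted p = 6.0e-06, and 0.69 ± 0.10, adjusted p = 7.9e-04. LDHD, the D-lactate dehydrogenase, rose by 1.18 ± 0.17, adjusted p = 7.5e-04, and GAA, the lysosomal enzyme that degrades glycogen, by 0.63 ± 0.05, adjusted p = 4.0e-05. PGM5, a relative of the phosphoglucomutases, rose by 0.66 ± 0.10, adjusted p = 0.0012, and the sixth was SLC2A14. PDP2, a phosphatase that reactivates pyruvate dehydrogenase, was between 23.7 and 26.8 CPM in WT normoxia and between 14.4 and 17.1 CPM in hypoxia and changed by -0.64 ± 0.07, adjusted p = 2.1e-04. PGM2L1, which makes glucose 1,6-bisphosphate, changed by -0.77 ± 0.07, adjusted p = 6.9e-05.

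In KO cells 2 of the 51 genes tested were higher and 2 were lower, or 3.92% each, against 6.73% and 2.94% of all genes, which is near the background. SLC37A4, the glucose 6-phosphate transporter of the endoplasmic reticulum, was at 37.1, 41.2, 39.8 and 36.9 CPM in WT normoxia, 47.3, 51.9, 47.99 and 49.4 CPM in WT hypoxia and 21.5, 21.2, 22.2 and 20.6 CPM in CCAR2 KO cells. KO cells had the lowest values and hypoxia the highest, without overlap, with a log2 fold change of -0.82 ± 0.05, adjusted p = 3.4e-07 in KO cells. PGM5 changed by -0.63 ± 0.12, adjusted p = 0.0016. The higher genes were SLC2A14 and SLC16A8, the latter with a mean of 32 counts. Between KO cells and hypoxia 3 were higher and 7 lower, against 7.08% and 7.88% of all genes, among them SLC37A4 at -1.20 ± 0.05, PGM5 at -1.30 ± 0.11 and PGM2L1 at 1.10 ± 0.07.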

How the data were processed

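Poly-A RNA of MDA-MB-231 cells was sequenced as 12 libraries. The deposited table holds whole numbers by gene, unscaled, treated here like expected counts. The methods name Hisat2 and StringTie, and the submitters' processing notes name HISAT2, SAMtools and featureCounts, so whether the values are counted reads or estimates from coverage is not settled. The genome build and annotation are not given in the sources used here. Sums are not taken as read numbers.

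Groups were taken from the labels. Each comparison was fitted on its 8 libraries by edgeR 4.0.16 (R 4.3.3), using TMM scaling, filterByExpr, glmQLFit and glmQLFTest, and Benjamini-Hochberg adjustment over all genes tested. Adjusted p-values in the text are from this fit unless a permutation test is named. Errors beside log2 fold changes and log2 ratios are SE. CPM were scaled over all 12 libraries together, so ranges can differ slightly from those within a fit. Ratios used an added 0.5 counts. Lengths and positions are from GENCODE 29 (GRCh38), matched by Ensembl identifier for 58396 of 60664 genes. Promoters were matched for 37 members from RefSeq (GRCh38.p14), and SLC2A3, PFKFB2 and SLC16A1 have no entry.

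The members, lists, ratios and tests were chosen with earlier results of these data known. All 40 members are named. Of the other pathway list, 13 genes were called in at least 1 comparison, and not all of these are named. SLC16A8 was named after its values were seen. In a simulation of the hypoxia comparison (21126 genes, 200 changed), edgeR recovered 67% of 2-fold and 83% of 4-fold changes with 8 false calls. The changed genes were drawn at random from all genes that passed the filter, so these rates are not those of the members. Alternatives were DESeq2 1.42.0, limma-voom (limma 3.58.1), RLE and upper-quartile scaling, other filters and fold limits, a joint fit of the 12 libraries, a replicate block and each library left out. Dividing the values by 4, since 4 was more frequent than 3 or 5, was chosen after seeing the data.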

Additional observations from a re-analysis of the deposited data

Results flagged for a closer look

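In 11 of 120 groups of 4 libraries, 1 library stood apart from the other 3 by more than Dixon's 95% limit on the gap as a share of the range of the group, where chance gives about 6. In WT normoxia, PFKFB2 in replicate 1 (26.9 CPM, the others 24.1 to 24.4) had a gap share of 0.9004, BPGM in replicate 2 (9.65 CPM, the others 8.69 to 8.77) had 0.916, and PDK3 in replicate 3 (8.85 CPM, the others 10.04 to 10.2) had 0.848. In hypoxia, PDK4 in replicate 3 (4.66 CPM, the others 3.53 to 3.72) had 0.830 and UGP2 in replicate 2 (59.6 CPM, the others 47.5 to 49.2) had 0.855.

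In CCAR2 KO cells the share was 0.907 for LDHA in replicate 1 (710.0 CPM, the others 674 to 677) and 0.935 for PGAM1 in replicate 2 (799.8 CPM, the others 809.8 to 810.4). Replicate 3 stood above the others for ALDOA (1157 CPM, the others 1037 to 1053, share 0.866) and TPI1 (846 CPM, the others 741 to 754, share 0.871). Replicate 4 stood above them for PFKFB3 (92.8 CPM, the others 88.8 to 89.4, share 0.851) and ENO3 (11.2 CPM, the others 10.6 to 10.7, share 0.864).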

How the results depend on the processing

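The counts of members called depended on the fold limit more than on the test or the scaling. With a limit of 1 on the absolute log2 fold change, 5 members were higher in hypoxia, 0 higher and 0 lower in KO cells, and 0 higher and 6 lower in KO cells than in hypoxia. The shares of all genes at that limit are not given here. By the adjusted p-value alone, 9 were higher and 11 lower in KO cells, against 14.9% and 15.4% of all genes tested. Between KO cells and hypoxia, 5 were higher and 28 lower in KO cells by that p-value, against 17.1% and 17.8% of all genes tested. When each library was left out in turn, 18 to 20 members were higher and 0 to 0 lower in hypoxia, 3 to 3 higher and 1 to 2 lower in KO cells, and 3 to 3 higher and 21 to 22 lower in KO cells than in hypoxia. The other alternatives kept each count within 1.5 times. With the fold limit at 0.5, the calls that changed between alternatives were those of GPI, TPI1, PGAM1, FBP1, HK1, PFKP and ENO3, all near that limit. Other members passed the adjusted p-value but stayed under the fold limit throughout. HK1 was called lower in KO cells than in hypoxia with upper-quartile scaling, at -0.50, and PFKP without hypoxia replicate 2, at -0.51. GPI lost its call without the filter on low counts, at 0.48. Among values called in neither fit, 23 of 2040 over all alternatives changed sign, and no called value did.

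Adding 1 count in place of 0.5 left 17, 9 and 16 ratios past the threshold. With a library left out, the exact test cannot go below 0.0571, so it says nothing about stability there, and the direction of each ratio past the threshold was kept. The numbers of the replicates show no pairing, as same-numbered libraries had correlations of their deviations between -0.02 and 0.06. A replicate block gave 19 members higher and 0 lower in hypoxia, 3 and 1 in KO cells, and 3 and 21 between KO cells and hypoxia. Replicates not tied to cultures, a single KO line, an unsettled origin of the counts, and exons shared with genes on either strand limit these values. For SLC16A1 and PDK4 the low level limits precision.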
